A study of Homo sapiens with 24 samples.

Results

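The messenger RNAs of 57 cytosolic ribosomal protein genes, of 11963 genes named on the arrays, were followed in LNCaP cells, an androgen-responsive human prostate cancer line. The members were every gene whose single annotated symbol was RPL or RPS with a number, and the rule also admitted the stalk proteins (RPLP) and RPSA, without the RPS6K kinases, RPS4Y1 and pseudogenes. They comprised 36 large subunit and 21 small subunit genes, each read through the brightest of its probe sets, judged by the mean of the 24 arrays. Of these, 54 lay above the filter on signal, as did 6782 genes in all. Of the other 3, RPL39L and RPL3L lay at or near the floor of the scale, and RPLP2 was represented by a dim probe set (2.57 to 3.16 on the log2 scale). A further 62 probe sets with a ribosomal protein symbol also carried other symbols and are not analysed here, so RPL4, RPL5 and RPS2, among others, enter no count below. RPSA and RPLP0 are not among the 57 either, and RPLP1 is the 1 stalk protein tested.

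The cells had been nucleofected with a plasmid (2.5 µg) that carried either a scramble control or 1 of 3 microRNAs, miR-130a, miR-203 and miR-205. From each of the 4 transfections, total RNA and RNA co-immunoprecipitated with AGO2, the Argonaute protein that holds microRNAs on their target transcripts, were measured on 3 arrays each, labelled as biological replicates. The AGO2-bound fraction can also hold RNA that came down without AGO2, and no immunoprecipitate with another antibody was analysed here. Each array received 2 µg of RNA, so that a lower value means a smaller share of that RNA and not a smaller amount per cell. Precision is set by the 3 arrays in each group.

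Cytosolic ribosomal proteins assemble with ribosomal RNA into the small subunit, which decodes the messenger, and the large subunit, which forms peptide bonds. Their messengers are short, abundant and long-lived, and most begin with a run of pyrimidines at the cap, the 5′ terminal oligopyrimidine (TOP) tract, through which growth signals acting by mTOR and LARP1 set their translation as a group. Argonaute-bound fractions are usually read for transcripts that a microRNA has drawn in.

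Most members shared the TOP tract, a feature that the choice by symbol did not use. RefSeq promoter windows of build GRCh38.p14 matched 49 of the 57 members. A C followed by at least 4 further pyrimidines (C or T), beginning within 5 bases of an annotated start on the gene's strand, was found in 40 of the 49 (81.6%). The same letters were found in 25.2% of 27305 genes and in 29.9% of the 5717 tested genes in the table. The windows below run from 20 bases before to 10 bases after the start, 5′ to 3′. Capitals mark the pyrimidines from the first C that met this rule, as far as the window reaches. The run goes on past the window in RPL35, RPS21 and RPS3, and begins before the capitals in RPL29 and RPS10. Windows are shown for the members on which the results turn. These were 4 that were high in AGO2-bound RNA after scramble, and RPS28 that was high after every transfection. The others were RPS3 and RPL12, low after every transfection, and 3 whose direction turned with the transfection. RPL27 and RPS29 are among the members without the tract in this window.
RPL11, chr1:23691786-23691815, plus strand: tcggccggaagctccgCTTTCTCTTCCTgc
RPL35, chr9:124861948-124861977, minus strand: aggtcagccccgcctaCTTCCTCTTTCCCT
RPL27, chr17:42998399-42998428, plus strand: cctcaccggggtgaaaggttagcggaagtg
RPS21, chr20:62387083-62387112, plus strand: tgccgggtgactagctgCTTCCTTTCTCTC
RPS28, chr19:8321476-8321505, plus strand: ggctctccccgaagcacgtgaCTCCTCTCC
RPS3, chr11:75399498-75399527, plus strand: cttccgcccgcgagccaCTTCCTTTCCTTT
RPL12, chr9:127451397-127451426, minus strand: cttgtccgcgcgatttccggCCTCTCggct
RPS10, chr6:34426060-34426089, minus strand: cagcaccgcgcatgctCCTTCCTTTCCagc
RPL29, chr3:51995886-51995915, minus strand: tgctgcaccgcagccCCTTTCTCTTCCggt
RPS29, chr14:49598701-49598730, minus strand: ttttcccccgagcgcgcagctggcagcggt

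The cells and the RNA were checked on the same arrays. Of 8 luminal markers of LNCaP, 7 lay above the floor on every array, with KLK3 at 10.4 to 12.3 in total RNA, and FOLH1 was dim (3.23 to 4.75 in total RNA) and near the floor on 2 arrays. Of 12 markers of basal, stromal and blood cells, KRT5, KRT15, COL1A2, DCN, LUM, PTPRC, CD3E, CD14 and LYZ lay at the floor on all 24 arrays and KRT14 on 22. COL1A1 (3.06 to 4.53) was above it on every array, and VIM (2.39 to 3.83) was near it on 1. The probe for 18S ribosomal RNA read 6.91 to 8.32 in AGO2-bound RNA (median 7.43) and 2.91 to 5.14 in total RNA (median 3.80), with total scramble replicate 1 the highest of the total arrays. The 3′ minus 5′ difference of ACTB, a measure of RNA integrity, ran from 2.22 to 3.94 in AGO2-bound RNA and from 2.00 to 2.44 in total RNA. Both differences run with every comparison of AGO2-bound with total RNA given here, and their part in it was not tested. The lowest value of the scale was shared within 3 sets of arrays (6 of miR-130a, 6 of miR-203, 12 of scramble and miR-205), which appear to have been normalized apart. AGO2-bound against total RNA of one transfection never crosses these sets, and scramble and miR-205 share one.

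In AGO2-bound RNA the ribosomal protein messengers as a group were lower than in total RNA after all 4 transfections, with a minority strongly raised. After scramble, 36 of 54 members were lower and 10 higher, against 37.8% and 35.1% of all 6782 genes tested (limma, Benjamini-Hochberg adjusted p under 0.05). After miR-130a, 35 were lower and 5 higher, against 38.3% and 33.3% of all genes. After miR-203, 36 were lower and 9 higher, against 37.2% and 34.7%, and after miR-205, 32 were lower and 11 higher, against 36.1% and 36.6%. The median difference of the members, AGO2-bound minus total, was -0.82 with scramble, -0.78 with miR-130a, -1.07 with miR-203 and -0.65 with miR-205, where the medians of all genes were -0.05, -0.08, -0.03 and -0.01. At least 2-fold lower were 24, 19, 28 and 20 members in the same order, against 18.3%, 17.7%, 17.4% and 17.4% of all genes, and at least 2-fold higher were 5, 2, 2 and 5, against 20.9%, 19.2%, 19.8% and 21.5%.

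Other messengers with a like signal in total RNA were shifted too. Of the members, 49 had a mean of at least 11 in total RNA, a level chosen after the values were seen, and so had 58 genes outside the family as defined here. The medians of the members at that level and of those 58 genes were -0.79 and -0.86 with scramble, -0.81 and -0.83 with miR-130a, -0.997 and -0.616 with miR-203, and -0.67 and -0.61 with miR-205. The share that was lower was 65.3% of these members and 72.4% of the other genes after scramble, and 61.2% and 58.6% after miR-205. At a level of 10 or more, 223 other genes had medians of -0.74, -0.71, -0.52 and -0.70 in the same order of transfections. At a level of 12 or more, 35 members had medians of -0.53, -0.56, -0.76 and -0.45 and 12 other genes -0.59, -0.82, -0.64 and -0.61. The differences between members and other genes at these levels were not tested.

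**Figure D1:**
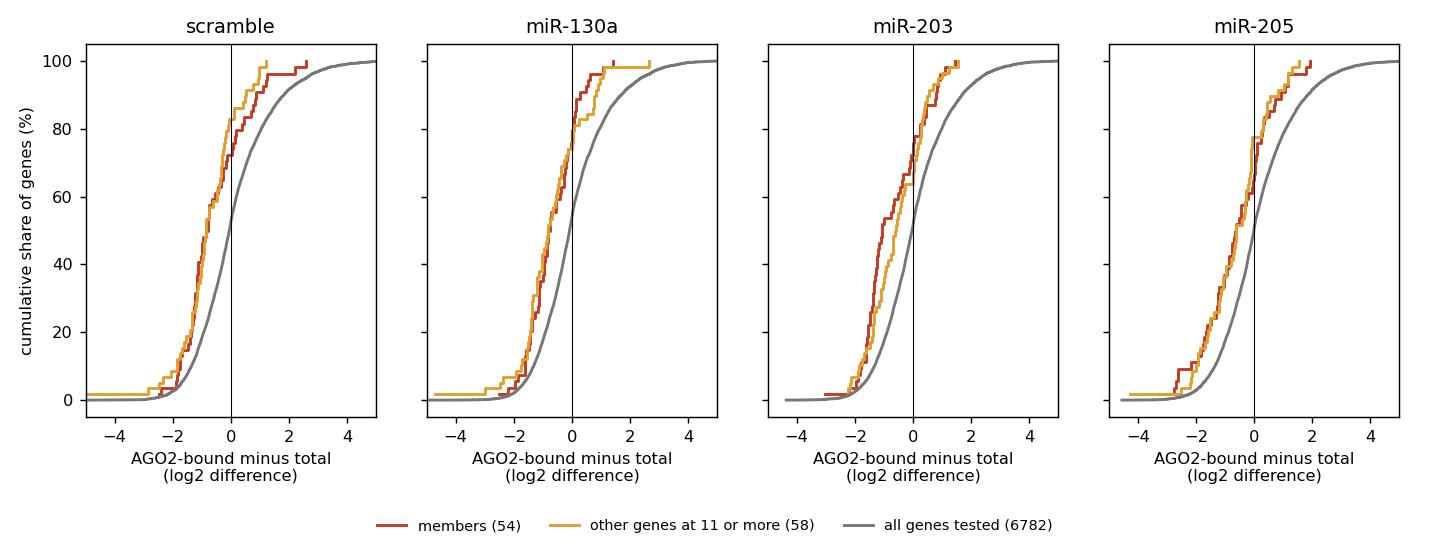
Cumulative share of genes (vertical axis, percent) by AGO2-bound minus total RNA (horizontal axis, log2 difference of the means of 3 arrays each) in the 4 transfections, for the 54 members, the 58 other genes with a total RNA level of 11 or more, and all 6782 genes tested. The curves of the members and of the other abundant genes both lie to the left of that of all genes, with medians of -0.82 and -0.86 after scramble.

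Both subunits had negative medians in every transfection. Large subunit members had medians of -0.96, -0.81, -1.07 and -0.70 after scramble, miR-130a, miR-203 and miR-205, with 23, 22, 24 and 20 of 33 lower. Small subunit members had medians of -0.79, -0.75, -0.65 and -0.53, with 13, 13, 12 and 12 of 21 lower. The difference between the subunits was not tested. Among 39 tested members with the letters of the tract at an annotated start, the medians were -0.79, -0.72, -0.50 and -0.53. Among 9 in which they were not found there, the medians were -0.77, -1.08, -1.37 and -0.86. The search depends on the annotated start, so these 9 are not shown to lack a TOP tract. The difference between these sets was not tested. The level in total RNA bore a weak relation to the difference over the 54 members, with Pearson's r of -0.01 to 0.12 and Spearman's rho of 0.12 to 0.28 across members, which share arrays and are not independent.

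Other genes of translation were set beside the same shares over all genes, 37.8%, 38.3%, 37.2% and 36.1% lower and 35.1%, 33.3%, 34.7% and 36.6% higher. Of 35 translation initiation factors tested, 21, 24, 23 and 23 were lower after scramble, miR-130a, miR-203 and miR-205 and 9, 7, 7 and 7 higher, with medians of -0.76, -0.78, -0.88 and -0.66. EIF4B, which assists the helicase of initiation and is itself a TOP gene, differed by -2.17, -2.50, -0.98 and -2.14, while EIF4EBP2, a repressor of initiation, differed by 3.57, 2.83, 1.76 and 2.43. Of 5 elongation factors, 4, 5, 4 and 5 were lower, with EEF2, the translocase, at -0.41, -1.37, -0.87 and -1.05 and EEF1A1, which delivers aminoacyl-tRNA, at -0.08, -0.36, 0.01 and -0.61. Of 15 other TOP genes, 12, 13, 12 and 11 were lower, with medians of -1.12, -1.20, -0.98 and -1.05. They include FAU, and also EEF1A1, EEF1D, EEF2, EIF3E, EIF3F, EIF3H and EIF4B, which are counted among the factors above too. FAU, a ribosomal protein of the small subunit made as a ubiquitin-like fusion, was at -1.86, -1.50, -2.12 and -1.53.

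The medians of 3 lists outside cytosolic translation were negative too. Of 41 ribosome biogenesis genes, 23, 22, 23 and 19 were lower and 4, 6, 6 and 12 higher, with medians of -0.50, -0.50, -0.44 and -0.29. Of 48 mitochondrial ribosomal proteins, 31, 26, 28 and 29 were lower and 9, 13, 14 and 12 higher, with medians of -0.94, -0.47, -0.62 and -0.73. Of 31 proteasome genes (symbols PSMA, PSMB, PSMC and PSMD), which have no part in translation, 27, 24, 17 and 19 were lower and 2, 2, 8 and 10 higher. Their medians were -1.03, -0.59, -0.63 and -0.93. No difference between these lists and the ribosomal protein genes was tested.

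In total RNA the members hardly moved between transfections, while in AGO2-bound RNA they spread widely. The range of a member's 4 group means had a median of 0.20 in total RNA, against 0.49 over all genes tested, and of 1.34 in AGO2-bound RNA, against 0.97 over all genes. A range of at least 1 was reached in AGO2-bound RNA by 34 members (63.0%), against 47.8% of all genes, and in total RNA by 1 member, RPL26L1, against 12.2% of all genes. The median SD within a group of 3 arrays was 0.20 for members in AGO2-bound RNA and 0.06 in total RNA. Among genes with a total RNA level of 11 or more, the median range in AGO2-bound RNA was 1.43 for 49 members and 0.93 for 58 other genes, and in total RNA 0.17 and 0.28. These ranges set side by side levels of arrays that appear to have been normalized apart. An offset between the sets can be part of the ranges.

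**Figure D2:**
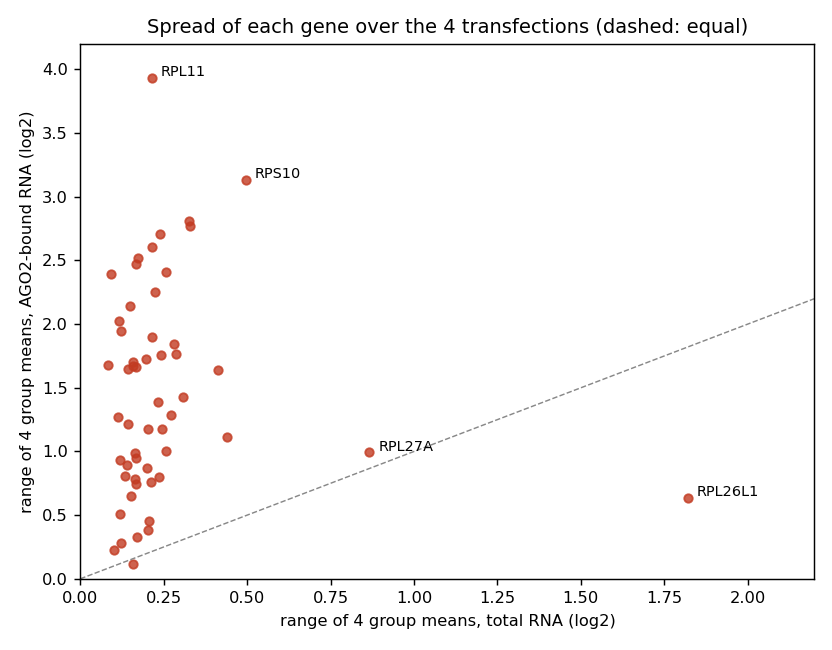
Range of the 4 group means of each of the 54 members in total RNA (horizontal axis, log2) and in AGO2-bound RNA (vertical axis, log2); the dashed line marks equal ranges. RPL11 reached 3.93 in AGO2-bound RNA with 0.21 in total RNA, and RPL26L1 is the one member past 1 in total RNA, at 1.82.

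The members did not keep one order. Across the 54 members, the differences of AGO2-bound from total RNA correlated between transfections that share no array with Pearson's r of 0.51 (scramble and miR-130a), 0.30 (scramble and miR-203), 0.45 (scramble and miR-205), 0.40 (miR-130a and miR-203), 0.47 (miR-130a and miR-205) and 0.20 (miR-203 and miR-205), values across genes and not across replicates. Over all 6782 genes the same correlation ran from 0.59 (miR-203 and miR-205) to 0.79 (scramble and miR-130a), with 0.63 for miR-130a and miR-203. Lower in all 4 transfections were 17 members, against 16.2% of all genes, and 20 members passed the threshold upward in one transfection and downward in another, as did 1390 genes in all (20.5%). RPL37A, a zinc-binding large subunit protein, varied little on its brightest probe set, where its 24 values lay between 13.03 and 13.55 and its differences were -0.14, -0.00, 0.01 and -0.21 ± 0.10 (SE; adjusted p = 0.22, 0.98, 0.95 and 0.065). Its dimmer probe sets gave -0.48, -0.22, -0.53 and -0.88, and -0.07, 0.57, -0.35 and -0.24.

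**Figure D3:**
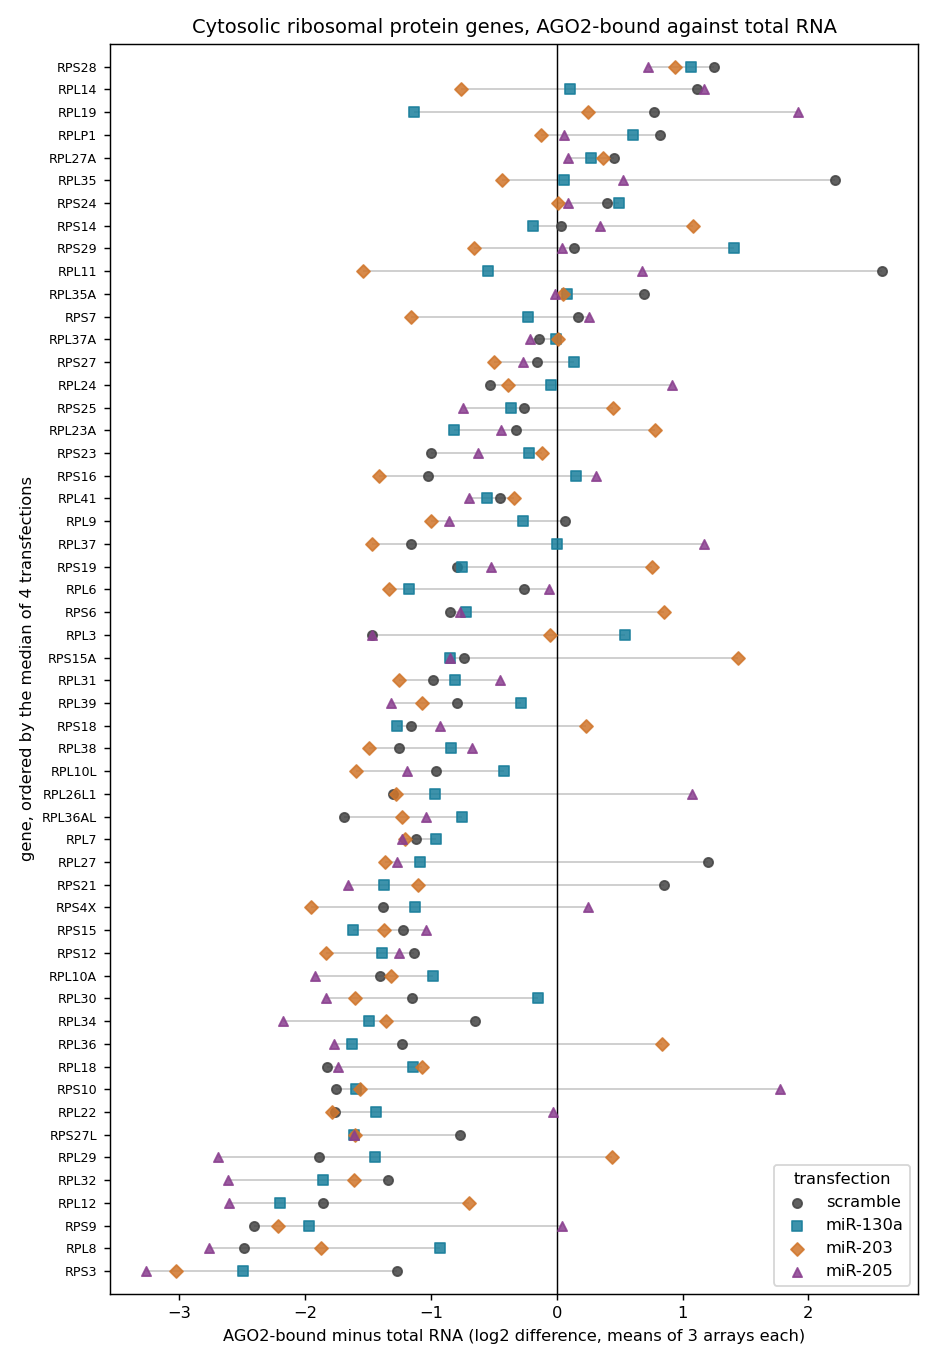
AGO2-bound minus total RNA of each of the 54 members (horizontal axis, log2 difference of the means of 3 arrays each) after each of the 4 transfections, ordered by the median of the 4; grey lines span the lowest and highest value. Most points lie left of 0, RPS28 lies right of 0 in all 4, and single transfections set RPL11, RPL35, RPL27, RPS10 and RPS15A far from their other values.

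RPL11 and RPL35 had been singled out with their values known and are described without a test. RPL11 binds 5S ribosomal RNA together with RPL5 and is known for holding MDM2 in check when ribosome assembly fails. In AGO2-bound RNA it read 13.77, 13.92 and 13.77 after scramble, 11.11, 10.54 and 10.36 with miR-130a, 10.02, 9.71 and 9.94 with miR-203 and 12.20, 11.96 and 11.79 with miR-205, while its 12 values in total RNA lay between 11.15 and 11.48. The scramble arrays were the highest, above their total arrays without overlap, and the miR-203 arrays the lowest, below theirs. AGO2-bound minus total was 2.58 after scramble (5.99-fold higher), -0.54 with miR-130a, -1.54 with miR-203 (2.91-fold lower) and 0.68 with miR-205. The excess over scramble was -3.13 for miR-130a and -4.12 for miR-203, the most negative of all members in both.

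RPL35 lies at the tunnel exit, where the nascent chain leaves the ribosome. It read 13.70, 13.93 and 13.76 in AGO2-bound RNA after scramble, 11.78, 11.69 and 11.67 with miR-130a, 11.52, 11.36 and 11.08 with miR-203 and 12.48, 12.44 and 11.86 after miR-205, against 11.45 to 11.82 in all total arrays. The scramble arrays again stood above all others, and those of miR-130a overlapped their total arrays. The differences were 2.21, 0.06, -0.43 and 0.53 in the order scramble, miR-130a, miR-203 and miR-205. Each of these genes had 1 probe set. Without AGO2-bound miR-203 replicate 3 the value of RPL35 after miR-203 was -0.31.

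RPL27 and RPS21 were the 2 members that were higher after scramble and lower after each of the 3 microRNA plasmids. RPL27, a large subunit protein, read 14.01, 14.11 and 13.93 in AGO2-bound RNA after scramble and between 11.20 and 11.77 on the 9 arrays of the microRNA plasmids, while total RNA lay between 12.65 and 12.92 throughout. The groups did not overlap in any transfection. The difference was 1.20 ± 0.13 after scramble (adjusted p = 1.4e-08), and -1.08, -1.37 and -1.27 ± 0.13 with the miR-130a, miR-203 and miR-205 plasmids (limma, adjusted p = 8.1e-08, 1.6e-09 and 5.2e-09).

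RPS21, a small subunit protein, read 13.21, 13.45 and 13.10 after scramble in AGO2-bound RNA and 10.47 to 11.53 after the microRNA plasmids, against 12.28 to 12.53 in total RNA. Its differences were 0.85 ± 0.13 (adjusted p = 3.1e-06), -1.37, -1.11 and -1.66. A dimmer second probe set of RPS21 gave 0.67, 0.54, -1.08 and -0.76, so its direction after miR-130a depended on the probe set. Against scramble, the excess after miR-205 was -2.47 ± 0.19 for RPL27 and -2.51 ± 0.19 for RPS21 (limma, adjusted p = 9.4e-11 and 7.3e-11). The scramble and miR-205 arrays appear to have been normalized together.

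RPS28, which sits near the messenger exit of the small subunit, was the 1 member higher in AGO2-bound RNA past the threshold in all 4 transfections, as were 17.1% of all genes. It read 14.27 to 14.31 after scramble, 14.02 to 14.11 with miR-130a, 14.04 to 14.17 with miR-203 and 13.87 to 13.94 with miR-205, against 12.94 to 13.23 in total RNA. No AGO2-bound array overlapped a total array. The differences were 1.25, 1.07, 0.94 and 0.73 ± 0.09 (adjusted p = 1.6e-11, 2.8e-10, 2.6e-09 and 1.7e-07). On every AGO2-bound array of scramble and miR-130a, and on miR-203 replicate 3, RPS28 was itself the highest value of the array. The highest value of any probe set on an AGO2-bound array was at most 14.49. RPS28 thus lay at or near the top of the scale, and whether that limits its value was not tested. A second probe set at a mean of 5.82 gave 1.22, 0.97, 0.90 and 0.25, and the last did not pass the threshold (adjusted p = 0.40).

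RPS3, RPL8, RPL12 and RPL32 were lower after every transfection and among the lowest of the family. RPS3, at the messenger entry of the small subunit and also known for a part in DNA repair, read 10.68, 10.53 and 9.91 in AGO2-bound RNA after scramble, 9.19, 8.96 and 9.23 with miR-130a, 9.07, 8.63 and 8.95 with miR-203 and 8.94, 8.54 and 8.10 after miR-205, against 11.57 to 12.06 in total RNA. All AGO2-bound arrays lay below all total arrays, those of scramble least far. The differences were -1.27, -2.50, -3.02 and -3.26 ± 0.18 (adjusted p = 1.0e-06, 1.2e-11, 3.6e-13 and 7.4e-14), the last a 9.60-fold lower level. The excess over scramble after miR-205 was -1.99 ± 0.26 (adjusted p = 8.1e-07).

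RPL8, a protein of the peptidyl transferase region, gave -2.49, -0.93, -1.88 and -2.76 ± 0.20, the smallest of these after miR-130a. RPL12, which forms the base of the stalk, gave -1.86, -2.20, -0.69 and -2.60 ± 0.18, and its second probe set -1.66, -2.03, -0.68 and -2.52. RPL32 gave -1.34, -1.86, -1.62 and -2.61 ± 0.13. RPS12, RPS15, RPL18, RPL10A, RPL7, RPL36AL and RPS27L were also lower in all 4, by between 0.75 and 1.92, as were RPL10L, RPL31, RPL34, RPL38, RPL39 and RPL41. For RPL38 this held on its brightest probe set (-1.25, -0.84, -1.49 and -0.67), while its 2 dimmer probe sets were positive in all 4, at 0.16 to 0.84. For RPL31, a dimmer probe set gave -0.19, 0.02, -0.69 and -0.61, and another was negative in all 4. RPL10L lay near the floor, with AGO2-bound values of 2.37 to 3.75 and total values of 3.68 to 4.40. RPL7 varied little, with AGO2-bound values of 11.77 to 12.06 and total values of 12.88 to 13.24 over all arrays and differences of -1.12, -0.96, -1.21 and -1.23 ± 0.10.

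After miR-203 a set of 6 members, RPL23A, RPL29, RPL36, RPS6, RPS15A and RPS19, was higher in AGO2-bound RNA although each was lower after the other 3 plasmids. RPS15A, a small subunit protein, read 13.92, 14.02 and 13.73 in AGO2-bound RNA after miR-203 and 11.39 to 11.99 after the other plasmids, against 12.42 to 12.68 in total RNA. Its difference was 1.44 ± 0.13 after miR-203 (adjusted p = 1.0e-09) and -0.74, -0.85 and -0.85 after scramble, miR-130a and miR-205. The excess over scramble was 2.17 ± 0.19 (adjusted p = 1.3e-09).

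RPL29, a heparin-binding large subunit protein, read 12.50, 12.68 and 12.16 after miR-203 in AGO2-bound RNA, against 10.24 to 10.56 after scramble, 10.55 to 11.02 after miR-130a and 9.35 to 9.85 after miR-205. Its difference after miR-203 was 0.44 ± 0.14 (adjusted p = 0.0088), and after the others -1.89, -1.44 and -2.70, and its second probe set gave 0.30 beside -2.28, -1.60 and -2.96. RPL36 moved from -1.23 after scramble, -1.63 after miR-130a and -1.77 after miR-205 to 0.84 ± 0.14 after miR-203 (adjusted p = 1.2e-05). RPS6, the substrate of the S6 kinases, moved from -0.85, -0.72 and -0.77 to 0.85 ± 0.13 (adjusted p = 2.5e-06). RPS19, mutated in Diamond-Blackfan anaemia, gave 0.75 ± 0.18 and RPL23A, at the tunnel exit, 0.78 ± 0.11. RPS14 was also higher there, by 1.09 ± 0.11, and was not lower past the threshold after any other plasmid. The miR-203 arrays appear to have been normalized apart from the others, which leaves the difference of AGO2-bound from total RNA within them.

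After miR-205 the change of direction fell on other members. RPS10, a small subunit protein, read 14.35, 14.20 and 14.26 with miR-205 in AGO2-bound RNA and 10.85 to 11.51 after scramble, miR-130a and miR-203. Its total RNA was 12.48 to 12.52 after miR-205 and 12.77 to 13.03 elsewhere, lower than scramble by 0.39 ± 0.07 (adjusted p = 0.0015), so that AGO2-bound and total RNA moved in opposite directions. The difference was 1.77 ± 0.13 after miR-205 (adjusted p = 9.9e-12), and -1.75, -1.60 and -1.56 after the others. The excess over scramble of 3.53 ± 0.18 (adjusted p = 1.3e-13) was the most positive of any member. Of its 4 probe sets, 2 more at means above 12 gave 1.45 and 1.75 after miR-205 and between -1.38 and -1.84 elsewhere, and a dim one gave 0.61, 1.05, 0.73 and 0.35.

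RPS9 was low after 3 plasmids and level after miR-205. It read 8.92, 8.56 and 8.73 in AGO2-bound RNA after scramble, 8.93 to 9.37 with miR-130a, 8.79 to 9.05 with miR-203 and 11.17, 11.19 and 11.04 after miR-205, against 10.99 to 11.22 in total RNA. Its differences were -2.41, -1.97 and -2.21 ± 0.12, and 0.04 after miR-205 (adjusted p = 0.78), where the arrays overlapped. A second probe set gave -1.86, -1.43, -1.78 and -0.14. The excess over scramble after miR-205 was 2.45 ± 0.18 (limma, adjusted p = 4.6e-11), within arrays that appear to have been normalized together.

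RPL19, RPL37, RPL14 and RPL26L1 were the other members highest after miR-205. RPL19, at the tunnel exit and often used as a reference gene, read 14.09, 14.03 and 13.74 after miR-205, 12.89, 13.21 and 13.30 after scramble, 12.45 to 12.79 after miR-203 and 11.01 to 11.27 after miR-130a in AGO2-bound RNA, against 11.97 to 12.39 in total RNA. Its differences were 0.77, -1.13, 0.25 and 1.92 ± 0.13 in the order scramble, miR-130a, miR-203 and miR-205, and that after miR-203 did not pass the threshold (adjusted p = 0.083). RPL37 gave -1.16, 0.00, -1.47 and 1.17 ± 0.11, with AGO2-bound values of 14.12 to 14.15 with miR-205 and 11.55 to 12.03 for scramble and miR-203. RPL14 gave 1.12, 0.10, -0.76 and 1.17 ± 0.11, and its second probe set 1.25, 0.26, -0.69 and 1.49. RPL26L1, a paralog of RPL26 at a much lower signal than most members, read 6.51, 6.84 and 6.55 in total RNA after miR-205 and 8.26 to 8.55 in the other total arrays, whereas its AGO2-bound values were 7.48 to 7.96 with miR-205 and 6.91 to 7.65 after the others. Its difference of 1.07 ± 0.14 after miR-205 thus arose with a lower total level.

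**Figure D4:**
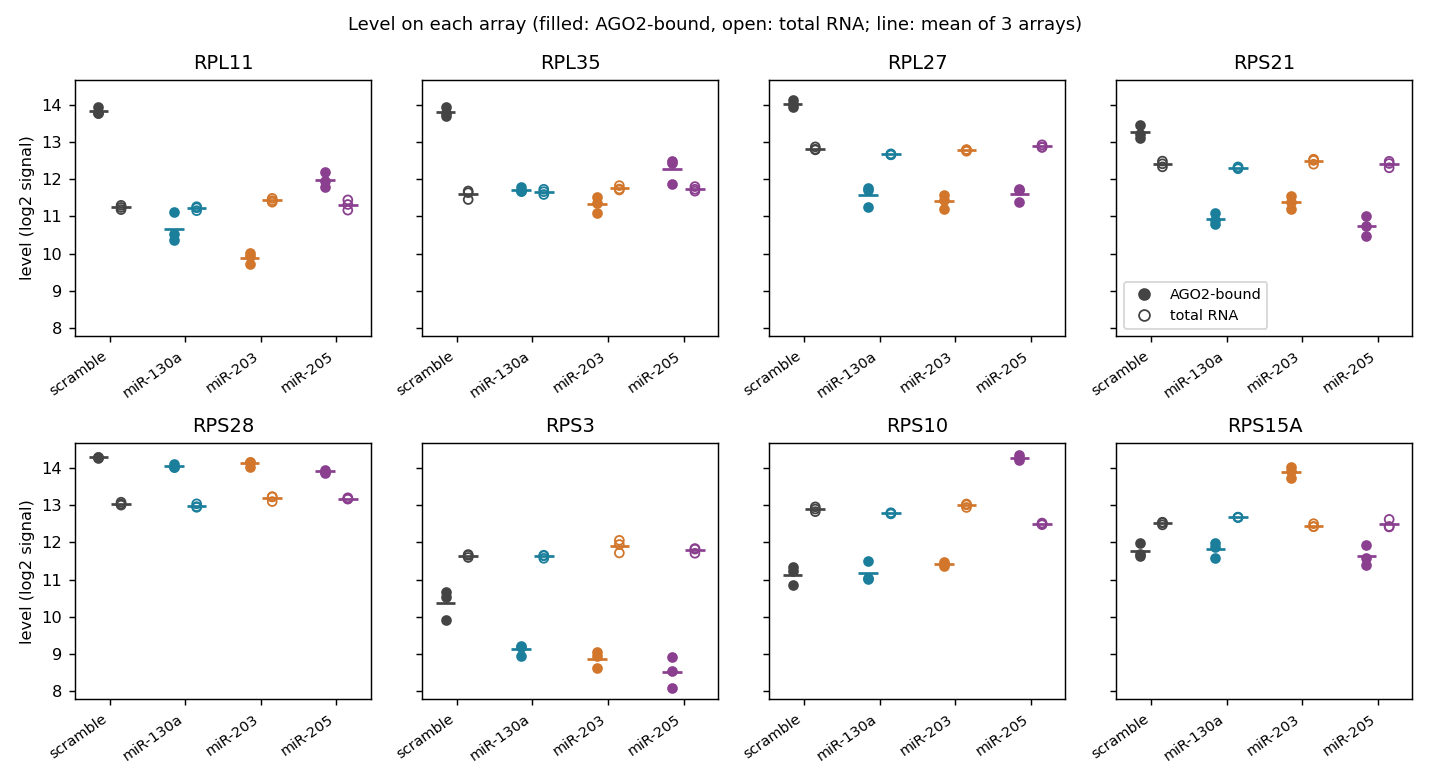
Level of 8 members on each of the 24 arrays (vertical axis, log2 signal; filled points AGO2-bound, open points total RNA, lines the means of 3 arrays) in the 4 transfections. Open points stay close to one level in every panel, while filled points of RPL11, RPL35, RPL27 and RPS21 are high after scramble, those of RPS10 after miR-205 and those of RPS15A after miR-203.

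After miR-130a, 5 members were raised, and RPS29 and RPL3 were raised in that transfection only. RPS28, RPLP1 and RPS24 were raised after at least 1 other plasmid too. RPS29, a zinc-binding small subunit protein, read 13.55, 13.78 and 13.61 in AGO2-bound RNA after miR-130a and 11.57 to 12.57 after the other plasmids, against 12.17 to 12.42 in total RNA. Its difference was 1.41 ± 0.12 (adjusted p = 4.1e-10) and 1.27 ± 0.18 in excess of scramble. RPL3, next to the peptidyl transferase centre, read 12.20, 12.44 and 12.10 after miR-130a and 10.12 to 10.68 after scramble, with a difference of 0.54 ± 0.15 (adjusted p = 0.0026) against -1.47 after scramble and after miR-205. RPLP1, an acidic protein of the stalk that recruits elongation factors, gave 0.61 ± 0.10 and RPS24 0.49 ± 0.10 after miR-130a, and 0.82 and 0.40 after scramble.

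Tested as a difference of differences, the excess of a microRNA plasmid over scramble went in both directions among the members, as it did over all genes. Whether the shares of the members differ from those of all genes was not tested. After miR-130a, 11 members were higher and 13 lower than in scramble, against 16.2% and 18.4% of all genes. With arrays centred on their median these counts were 15 and 11, beside 1263 higher and 1042 lower of all 6782 genes. Which direction held more thus depended on the scaling, among the members and over all genes. After miR-203, 13 were higher and 20 lower, against 22.1% and 27% of all genes, and after miR-205, 12 were higher and 18 lower, against 21.1% and 21.7%. The medians of the members were -0.03, -0.25 and -0.12, and of all genes -0.06, -0.09 and -0.06. With centred arrays, those after miR-130a turned to 0.05 for the members and 0.02 for all genes. The 3 comparisons share the scramble arrays, so a member that stood high after scramble, as RPL11 and RPL27 did, appears lower in each.

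In total RNA few members differed from scramble in the main fit. After miR-130a 1 of 54 passed the threshold, against 29.3% of all genes, namely RPS14, lower by 0.25 ± 0.07 (adjusted p = 0.024), and it no longer passed without any one of the miR-130a replicates or without scramble replicate 3. After miR-203, 7 passed, against 39.6% of all genes. The largest change was that of RPL27A, which rose by 0.87 ± 0.18 (adjusted p = 0.0022) on a dim probe set (mean 4.22). Among the others, RPL29 fell by 0.25 ± 0.07 (adjusted p = 0.015) and RPL37 rose by 0.25 ± 0.07 (adjusted p = 0.015). The mean of its probe sets gave RPL29 an adjusted p of 0.085, and quantile normalization gave RPL37 one of 0.087. The count after miR-203 fell to 3 without miR-203 replicate 3 or scramble replicate 3 and to 4 without miR-203 replicate 1 or scramble replicate 1. After miR-205, 4 passed, all lower, against 23.5% of all genes, with RPL26L1 at -1.75 ± 0.11 (adjusted p = 8.1e-07) and RPS10 at -0.39. With a trended and robust spread prior, these counts were 7, 18 and 7. Of all genes past the threshold after miR-130a, 54.5% were higher, and 41.8% with arrays centred on their median. Median differences of the members were -0.07, 0.08 and 0.02, the first of which turned to 0.03 under quantile normalization.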

How the data were processed

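The authors deposited log2 values per probe set, background-corrected and summarized before deposit; per the submitters' processing notes, GCRMA, RMA and R 2.9.0 were used, in an order they do not give. No original step was repeated. Probe sets with 1 gene symbol were named through the platform annotation (19064), and each gene took its probe set with the highest mean. Genes whose mean was below 2.85, the median over probe sets, were not tested. limma 3.58.1 in R 4.3.3 (lmFit, eBayes) was fitted to all 24 arrays for AGO2-bound against total RNA and its excess over scramble, and to the 12 total arrays for total RNA, with Benjamini-Hochberg adjusted p over 6782 genes under 0.05. The fit was tested on simulated data.

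Values after ± are standard errors of the fit. Named members were RPL11 and RPL35, the 5 highest and lowest per transfection, the 3 highest and lowest past the threshold against scramble, up to 10 members passing in each direction in all 4 transfections, and the 2 highest and lowest genes of the comparison lists; patterns by transfection were named after their values were seen. Members, lists and tests were chosen with earlier results of these data known. Replicates are biological per the labels, which name no cultures, so a p-value reflects only how these arrays varied. Deviations of arrays with the same replicate number correlated at -0.14 to 0.19 for AGO2-bound and total RNA, so the numbers were not taken as pairs. Alternatives changed the filter, probe set, scaling, spread prior, array weights, threshold, arrays in the fit, replicate block and each array in turn.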

Additional observations from a re-analysis of the deposited data

Results flagged for a closer look

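The difference of AGO2-bound from total RNA of the members below differed between a microRNA plasmid and scramble by the test of that difference itself, except that RPL11 and RPL35 were singled out with these values known and are given without a test. These are the 3 most negative and the 3 most positive of each comparison, and all share the scramble arrays. After miR-130a the excess over scramble was -3.13 for RPL11, -2.28 for RPL27 and -2.22 for RPS21, and 2.02 for RPL3, 1.56 for RPL8 and 1.27 for RPS29. RPL8 was below total RNA in both, so its positive value marks a smaller deficit.

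After miR-203 the excess was -4.12 for RPL11, -2.64 for RPL35 and -2.57 for RPL27, and 2.33 for RPL29, 2.17 for RPS15A and 2.07 for RPL36. The miR-205 arrays appear to have been normalized with those of scramble. After miR-205 the excess was -2.51 for RPS21, -2.47 for RPL27 and -1.99 for RPS3. It was 3.53 for RPS10, 2.45 for RPS9 and 2.37 for RPL26L1. For RPL26L1 the total RNA after miR-205 was itself lower by 1.75, while RPS10 was lower by 0.39 in total RNA and raised in AGO2-bound RNA. RPS21 after miR-130a changed with the probe set: its second probe set gave an excess of -0.13 (adjusted p = 0.72).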

How the results depend on the processing

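No member past the threshold changed sign in the comparison that named it, under any alternative that left it a probe set. Other values given above did change sign. Without probe sets ending in _x_at, RPL38 was positive in all 4 transfections and RPL31 was 0.02 after miR-130a. Without those ending in _x_at or _s_at, RPS21 after miR-130a was 0.54. Also, 2 medians near 0 changed sign. The median excess over scramble of miR-130a (-0.03) was 0.05 with centred arrays and 0.30 without probe sets ending in _x_at or _s_at. That of total RNA after miR-130a (-0.07) was 0.03 under quantile normalization. Leaving out probe sets ending in _x_at or _s_at kept 18 members and 4036 genes in all. Of the members, 5 were higher and 12 lower after scramble and 3 and 9 with miR-130a. With miR-203 these were 1 and 15, and with miR-205 6 and 10. Of all genes, higher and lower were 1516 and 1346, 1439 and 1419, 1474 and 1367, and 1553 and 1345. In excess of scramble, 6 members were higher and 5 lower with miR-130a, 2 and 9 with miR-203 and 4 and 6 with miR-205. Of all genes these were 616 and 743, 862 and 1091, and 798 and 864. In total RNA after miR-203, 2 members passed, beside 796 higher and 792 lower of all genes. Without probe sets ending in _x_at alone, the medians were -0.59, -0.46 and -0.84 after scramble, miR-130a and miR-203, and without both kinds -0.67, -0.34 and -1.10. In total RNA, members past the threshold after miR-130a (1) were 5 with no filter, 4 with centred arrays and 7 with the trended and robust prior. They were 0 at an adjusted p under 0.01, and 2 with the mean of probe sets, without _x_at, with only the arrays compared, and with the replicate block. Over all genes, higher and lower, no filter gave 1083 and 990 of 11963, and centred arrays 863 and 1204 of 6782. The trended and robust prior gave 1123 and 976, and the threshold of 0.01 gave 601 and 463. After miR-203 (7) the members were 13 with no filter, 18 with the trended and robust prior, 1 at 0.01 and 3 with only the arrays compared. Over all genes these were 1324 and 1317 of 11963, then 1393 and 1387, 809 and 903, and 1042 and 1114 of 6782. After miR-205 (4), 7 members passed with the trended and robust prior, beside 740 and 960 of all genes. The replicate block otherwise removed 1 named call, RPS3 in total RNA after miR-203 (adjusted p = 0.054).

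Leaving out each array gave, higher and lower, 10 to 10 and 35 to 36 after scramble, 5 to 5 and 32 to 39 with miR-130a, 8 to 11 and 35 to 36 with miR-203 and 10 to 13 and 29 to 33 after miR-205; in excess of scramble 9 to 13 and 11 to 14, 13 to 14 and 17 to 23, and 10 to 13 and 15 to 19; and in total RNA 0 to 2, 3 to 9 and 3 to 4. Whether values near the floor or the top of the scale are compressed was not tested, and probes shared with paralogs or processed pseudogenes cannot be told apart.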
